A study of Mus musculus with 24 samples.

Results

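Hindlimb (HL) and forelimb (FL) buds of wild-type mouse embryos at E10.5 (embryonic day) were compared across all genes. The comparison used the 3 libraries titled E10.5 WT HL and the 3 titled E10.5 WT FL, 6 of the 24 libraries of the series. The study asked how limb growth and patterning depend on the minor spliceosome, whose U11 RNA comes from Rnu11. The WT embryos were U11flx/flx::Prrx1-Cre-, of strain C57/Bl6: they carried the floxed U11 alleles but no Cre. Mutant libraries (Mut), with the same floxed alleles and the Cre allele, Prrx1-Cre+, entered as a source of spread and as a second set of limbs. Prrx1-Cre acts in limb bud mesenchyme, so ectoderm, vessels and blood of a mutant bud keep U11. Neither the embryo behind a library nor any pooling of buds is given by the labels, and the p-values therefore cover the spread between libraries, which may be technical.

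Forelimb and hindlimb buds arise at separate levels of the flank and use much the same signals for outgrowth, from the apical ridge (FGF) and the posterior mesenchyme (SHH). Their identity rests on a few transcription factors: Tbx5 in the forelimb, and Isl1, Pitx1 and Tbx4 in the hindlimb. Hox genes, whose order along each cluster follows the body axis, mark the level at which a bud forms. In the mouse the hindlimb bud appears later than the forelimb bud, and limb patterning then runs behind in the hindlimb by a fraction of a day.

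Levels are TPM (transcript abundance relative to the library's total), rescaled so that the median log2 value of broadly detected genes was equal in all libraries of a stage. Differences are HL minus FL on the log2(TPM + 1) scale, with the standard error of a limma fit to the 12 E10.5 libraries. Adjusted p-values are Benjamini-Hochberg over all genes tested, two-sided, with a threshold of 0.05. The added 1 makes differences of low genes smaller than the ratio of their levels. TPM keeps no read depth, so the counting error of low values is unknown. The 6 libraries listed 16133 to 26302 genes above 0, and FL replicate 1 and HL replicate 1 listed the fewest. Nuclear protein-coding genes held 19.9%, 22.3% and 21.1% of TPM in FL and 25.9%, 23.3% and 25.2% in HL, without overlap. Structural RNA held 59.5% to 76.1%, with overlap between limbs. Rnu11, the floxed gene, was at 292, 798 and 1240 TPM in FL and at 836, 635 and 495 TPM in HL, with overlapping groups. Y-linked Uty was present in all 6 libraries, at 8.92 to 13 TPM. In the fit, the library labelled E10.5 Mut FL replicate 3 stood apart. It held Isl1 at 10.4, Hoxc10 at 4.62 and Pitx1 at 1.81 TPM, where the other E10.5 Mut FL libraries held at most 0.2 TPM of each, and T, a tail bud gene, at 8.91 TPM. It also listed both Xist (9.50 TPM) and the Y-linked gene Ddx3y. WT limb calls that change without this library are therefore given with and without it. HL minus FL differences of single genes in the E10.5 mutants include it.

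Of 11955 genes tested, 11 passed (0.092%), 4 higher (0.0335%) and 7 lower (0.0586%) in HL. The 4 higher genes were Pitx1, Tbx4, Lin28a and Gm28760, and the 7 lower ones were Tbx5, Gria2, Ebf2, Emp3, Plod2, Gm43050 and Gm28037. Groups did not overlap for 5.4% of all genes tested in the higher direction and 6.31% in the lower, and 9.56% had an unadjusted p under 0.05. Without E10.5 Mut FL replicate 3, 17 of 11930 genes passed (0.142%), 10 of them among the 11. The 7 added were Aldh1a2, Cdo1, Hoxb9, Hoxc10, Isl1, Ptprd and Rxfp1, and Plod2 was lost. With coding genes alone, summed anew, 20 of 12875 passed (0.155%), 8 of them shared. With the 6 compared libraries alone 9 passed, 6 higher and 3 lower, and 4 were shared; Tbx5 (adjusted p = 0.156), Lin28a (0.156) and Ebf2 (0.172) were among those lost. On the deposited scale 15 passed, 8 higher and 7 lower, of which 7 were shared. The count also rests on the WT libraries: it was 1 without FL replicate 2 or HL replicate 2, 5 without FL replicate 3, 2 without HL replicate 1, 3 without HL replicate 3 and 8 without FL replicate 1. Gria2 passed in all 6 of these leave-outs and Pitx1 in 4, while Tbx4, Emp3 and Plod2 passed in none of them. The direction of no gene among the 8 coding calls turned in any of the alternatives run.

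**Figure D1:**
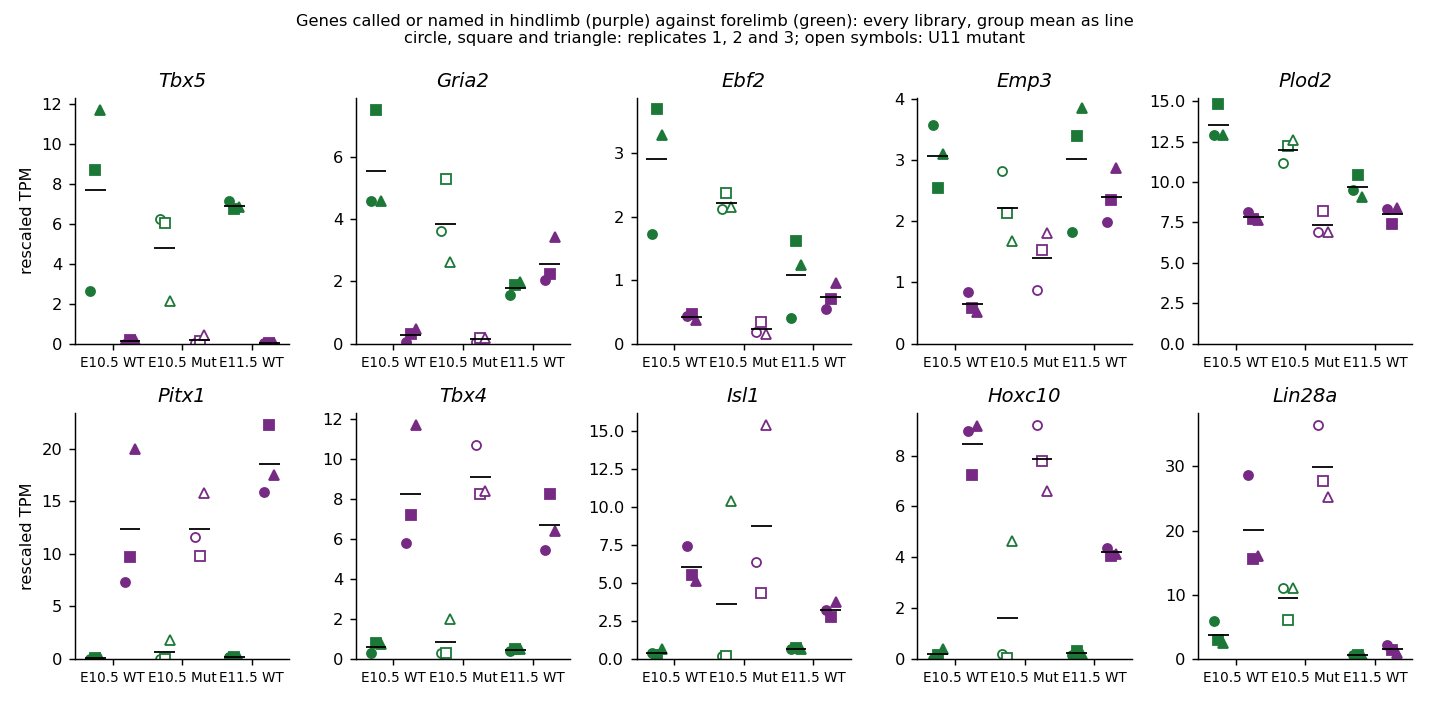
Rescaled TPM (linear axis from 0) of 10 genes in every E10.5 WT, E10.5 Mut and E11.5 WT library; green is FL, purple HL, open symbols mutant, symbol shape the replicate number, black lines group means. Tbx5 and Pitx1 are separated by limb at both stages, whereas Gria2 is higher in FL at E10.5 and slightly higher in HL at E11.5 (1.56 to 1.97 against 2.03 to 3.44 TPM).

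The factors that name the limbs were separated in every library, and 3 of the 4 passed. Tbx5, the T-box factor that starts forelimb outgrowth, was at 2.62, 8.67 and 11.7 TPM in FL and at 0, 0.181 and 0.16 TPM in HL. All FL libraries lay above all HL ones, and FL replicate 1 was low for its group. Tbx5 fell by 2.78 ± 0.43 (adjusted p = 0.0433, limma). Tbx4, its hindlimb counterpart, was at 0.297, 0.785 and 0.753 TPM in FL and at 5.81, 7.18 and 11.7 TPM in HL. The groups were apart, and Tbx4 rose by 2.48 ± 0.32 (adjusted p = 0.0237). Pitx1, a homeodomain factor that gives the hindlimb its form and acts upstream of Tbx4, was at 0, 0.0483 and 0.107 TPM in FL. In HL it was at 7.35, 9.71 and 20 TPM, and it rose by 3.55 ± 0.41 (adjusted p = 0.0128). HL replicate 3 was the highest library for both Pitx1 and Tbx4.

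Isl1, a LIM-homeodomain factor needed to start the hindlimb bud, was at 0.353, 0.259 and 0.62 TPM in FL and at 7.42, 5.54 and 5.14 TPM in HL. The groups were far apart, but the difference of 2.31 ± 0.72 did not pass (adjusted p = 0.311). Without E10.5 Mut FL replicate 3 it did (2.35, adjusted p = 0.0325), and over all alternatives its adjusted p ran from 0.00333 to 0.655. At E11.5, in other WT libraries, the differences were -2.95 for Tbx5, 2.39 for Tbx4, 4.11 for Pitx1 and 1.34 for Isl1, and all of them passed in the E11.5 fit, where 0.144% of 11126 genes did. In the E10.5 mutants they were -2.20, 2.56, 3.22 and 1.78, of which Tbx4 and Pitx1 passed, with 0.0586% of all genes. These values include E10.5 Mut FL replicate 3. Isl1 was at 0.2, 0.158 and 10.4 TPM and Pitx1 at 0.0142, 0 and 1.81 TPM in the mutant FL libraries 1 to 3. No gene passed the test of whether the limb difference depended on genotype at E10.5 (0%; limma, 298 of 11955 genes, 2.49%, at an unadjusted p under 0.05).

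The promoter of Tbx4 is shown because, of the limb type factors that passed, it is the one with an entry in the RefSeq promoter table. It covers 250 bases before to 50 after the start in that table, at chr11:85896515-85896814 on the plus strand of GRCm38.p6. This start lies inside the gene as GENCODE M21 bounds it (chr11:85886422-85916097), and which start was used in these buds was not tested. Capitals mark 2 motif matches: TTTATA, the reverse complement of the TATA box letters TATAAA, and CCGCCC, the reverse complement of the GC box letters GGGCGG.
Tbx4 promoter: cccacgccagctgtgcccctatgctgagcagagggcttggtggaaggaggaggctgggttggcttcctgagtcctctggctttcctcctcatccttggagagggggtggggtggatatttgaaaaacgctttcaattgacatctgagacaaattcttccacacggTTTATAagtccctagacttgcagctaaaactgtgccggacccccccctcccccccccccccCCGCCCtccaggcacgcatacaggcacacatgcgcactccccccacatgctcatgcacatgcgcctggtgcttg
Searched on both strands, TATAAA is present in 13.6% and GGGCGG in 35.7% of the 32851 promoters in the table. The bicoid-type homeodomain letters TAATCC (7.06% of promoters) and the T-box half-site GGTGTG (19.0%) were not found in this window.

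Noncoding transcripts beside 2 of the factors were among the calls. Gm43050, a long noncoding RNA on the minus strand at chr5:119828448-119831920 (GRCm38), lies 747 bases from the start of Tbx5, which is on the plus strand. It was at 7.68, 4.03 and 2.72 TPM in FL and listed at 0 in all 3 HL libraries (-2.45 ± 0.35, adjusted p = 0.0372). A second noncoding gene, 1700021F13Rik, lies 24798 bases from Tbx5. It was at 1.26, 0.645 and 2.99 TPM in FL and listed at 0 in HL (-1.30, adjusted p = 0.142), and at E11.5 it differed by -2.29 and passed. Gm28760, at chr13:55835360-55836095, lies within Pitx1 on its strand, so its reads and those of Pitx1 cannot be told apart by symbol. It was listed at 0 in FL and was at 0.78, 1.07 and 1.41 TPM in HL (1.05 ± 0.16, adjusted p = 0.0401). Gm28037 overlaps the ribosomal protein gene Rpl24 and is equally uncertain. It was at 71.8, 124 and 65.4 TPM in FL, and 8 of the 9 other E10.5 libraries, all 3 WT HL ones among them, listed it at 0.

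Among Hox genes, the widest gaps between limbs were at the 5′ side of HoxC and HoxB, where genes of posterior body levels lie. Hoxc10 was at 0, 0.169 and 0.397 TPM in FL and at 8.95, 7.23 and 9.16 TPM in HL. The limbs were apart by 3.00 ± 0.49, just short of the threshold (adjusted p = 0.0541). Hoxc10 passed without E10.5 Mut FL replicate 3 (adjusted p = 6.3e-05) and with coding genes alone (0.0492; 5.62e-05 to 0.212 over all alternatives), and at E11.5 (2.09, adjusted p = 6.34e-08).

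Its neighbour Hoxc11 was at 0, 0.159 and 0.198 TPM in FL and at 1.13, 1.62 and 3.57 TPM in HL (1.40, adjusted p = 0.28). Hoxc9 was at 0.751, 0.3 and 0.461 against 1.39, 1.28 and 1.64 TPM (0.70, adjusted p = 0.3). Both were without overlap. Toward the 3′ side, Hoxc8 (0.20) and Hoxc6 (0.28) overlapped, Hoxc4 (-0.34) overlapped too, and Hoxc5 was lower in all HL libraries, at 2.29, 2.55 and 1.18 TPM against 4.1, 2.81 and 4.06 (-0.65, adjusted p = 0.381). Hoxc12 and Hoxc13 were at most 0.32 TPM in all 6 libraries and were not tested. In the HoxB cluster, Hoxb9 was at 0.591, 0.893 and 0.736 TPM in FL and at 7.05, 4.13 and 3 TPM in HL (1.66 ± 0.38, adjusted p = 0.17). Hoxb9 passed without E10.5 Mut FL replicate 3 (adjusted p = 0.0271; 0.00638 to 0.508 over all alternatives), and Hoxb7 (0.96) did not overlap either. Hoxb3, a gene of anterior levels, was lower in every HL library, at 1.16 to 1.64 against 2.28 to 3.49 TPM (-0.62).

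The HoxD cluster, which drives growth and digit patterning in both limbs, lay lower in HL: 7 of 7 tested genes had negative differences, with a median of -0.74, and 0 of 7 passed. The median of all genes tested was -0.00175. On the deposited scale, where the median of all genes was 0.216, the HoxD median was -0.52 and Hoxd4 alone was not negative (0.01). Hoxd10 was at 21.9, 16.3 and 15.6 TPM in FL and at no more than 12.1 TPM in any HL library (-0.60, adjusted p = 0.401). Hoxd8, Hoxd9 and Hoxd10 were lower without overlap, as were 6.31% of all genes tested. Hoxd11 (-0.83), Hoxd12 (-1.12) and Hoxd13 (-0.89) overlapped, and the library numbered 3 was the highest of each limb. Hoxd13, which marks the future digits, was at 1.71, 4.57 and 12.4 TPM in FL and at 1.16, 1.74 and 4.37 TPM in HL. The HoxA cluster had a median of -0.21, which was 0.02 on the deposited scale. Hoxa9 (-0.17, but 0.09 on the deposited scale) and Hoxa10 (-0.01, 0.24 on the deposited scale) were its highest members, at 19.9 to 29.1 TPM in either limb, and Hoxa13 (0.106, 4.13 and 8.61 against 1, 1.29 and 4.35 TPM) overlapped widely.

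**Figure D2:**
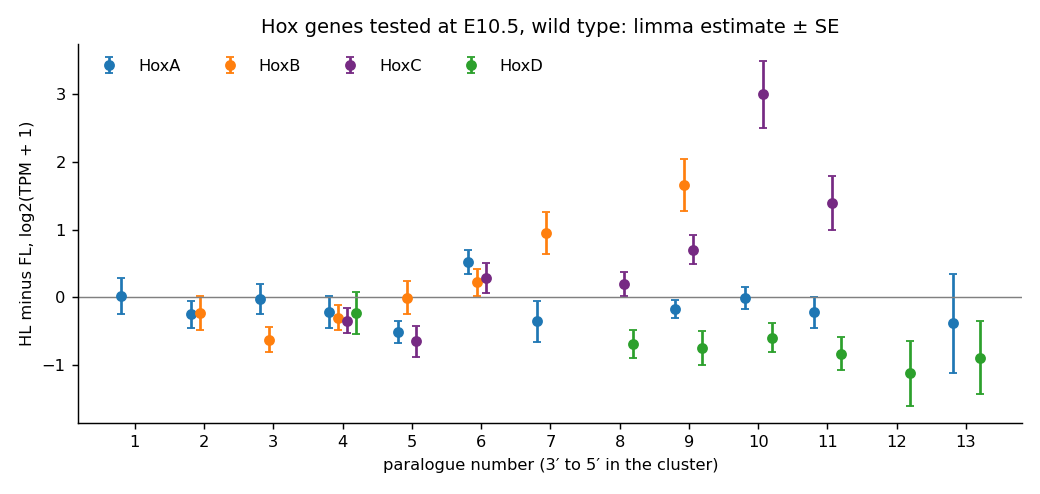
Difference between HL and FL (log2(TPM + 1), limma estimate with its SE as bars) of each tested Hox gene by paralogue number, coloured by cluster, in E10.5 wild type on the rescaled libraries. Hoxc10 at 3.00 and Hoxb9 at 1.66 are the highest points, and the 7 HoxD points lie between -1.12 and -0.23; on the deposited scale the points move up by about 0.2 and Hoxd4 comes to 0.01.

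The gene with the smallest p was Gria2, which encodes a subunit of AMPA glutamate receptors and is known from neurons. It lies at chr3:80681450-80802835 on the minus strand (GRCm38). Gria2 was at 4.59, 7.53 and 4.58 TPM in FL and at 0.0605, 0.292 and 0.463 TPM in HL. The FL mean of 5.57 ± 1.70 (SD, n = 3) was 20.5 times the HL mean of 0.272 ± 0.20. Gria2 fell by 2.35 ± 0.23 (adjusted p = 0.00567) and passed in all 15 alternatives run (adjusted p 0.000172 to 0.0491). In the mutants it was at 3.62, 5.31 and 2.63 TPM in FL and at 0.0542, 0.185 and 0.179 TPM in HL (-2.06, adjusted p = 0.0111). At E11.5 the limbs no longer showed that order: FL had 1.56, 1.87 and 1.97 TPM and HL 2.03, 2.25 and 3.44 TPM (0.34, adjusted p = 0.821). The test of the change between stages passed (2.55 ± 0.37, adjusted p = 0.00817), as it did for 0.0161% of 12399 genes.

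Of the neural and Schwann cell markers, 6 of 18 were tested and 0 passed, with a median of -0.17. Summed levels of that list were 19.6 to 23.5 TPM in FL and 13 to 18.4 TPM in HL. Dcx, a gene of young neurons, was at 3.39, 3.10 and 2.80 against 0.333, 1.25 and 0.995 TPM (-1.17, adjusted p = 0.204). Dcx had the largest difference of the tested markers and alone did not overlap, and the highest marker was at 0.16. The part of these markers in the Gria2 difference was not tested. In bulk samples, fewer cells of a type and less RNA per cell cannot be told apart. Within 2000 kb on either side of the Gria2 start, 13 genes were tested, Gria2 included. The next tested genes before the start were Glrb, which encodes a glycine receptor subunit, at 110.8 kb, and Pdgfc, a growth factor gene, at 233.6 kb. Glrb was at 8.34, 6.59 and 5.22 TPM in FL and at 2.30, 2.84 and 3.84 TPM in HL (-0.95, adjusted p = 0.139). Pdgfc was at 9.99 to 12.2 TPM in FL and at 5.39, 6.08 and 9.64 TPM in HL (-0.60, adjusted p = 0.409). Both were without overlap, and at E11.5 they differed by -0.08 and -0.13. On the other side, at -1065 kb, the relaxin receptor gene Rxfp1 was higher in HL, at 1.70, 1.78 and 1.83 against 0.239, 0.0672 and 0.172 TPM (1.26, adjusted p = 0.17).

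The promoter of Gria2 is shown since it belongs to the call with the smallest p. It covers chr3:80802786-80803085 on the minus strand of GRCm38.p6, and none of the 4 motifs named above was found in it, so nothing is in capitals.
Gria2 promoter: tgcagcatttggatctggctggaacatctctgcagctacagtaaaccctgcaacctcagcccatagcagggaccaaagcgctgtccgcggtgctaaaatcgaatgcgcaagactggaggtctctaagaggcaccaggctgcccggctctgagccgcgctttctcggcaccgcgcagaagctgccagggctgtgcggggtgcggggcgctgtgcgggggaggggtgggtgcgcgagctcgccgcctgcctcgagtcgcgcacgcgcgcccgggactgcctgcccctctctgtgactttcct

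A further 3 coding genes fell in HL. Ebf2, a transcription factor gene of mesenchymal precursors, was at 1.73, 3.69 and 3.28 TPM in FL and at 0.427, 0.467 and 0.376 TPM in HL. FL replicate 1 was again the lowest of its group, and Ebf2 fell by 1.42 ± 0.19 (adjusted p = 0.0237). Emp3, an epithelial membrane protein gene, was at 3.58, 2.54 and 3.10 against 0.851, 0.575 and 0.509 TPM (-1.31 ± 0.19, adjusted p = 0.0395). Plod2, a lysyl hydroxylase gene that acts on collagen, was at 12.9, 14.8 and 12.9 against 8.15, 7.68 and 7.66 TPM. It fell by 0.71 ± 0.11 (adjusted p = 0.0401), the smallest difference among the calls. On the deposited scale none of these 3 genes passed, and Plod2 was at -0.47 ± 0.31 (adjusted p = 0.858). In the mutants Ebf2 passed as well (-1.40, adjusted p = 0.0227), whereas Emp3 (-0.42) and Plod2 (-0.65) did not. At E11.5 none of these genes passed, with differences of -0.23, -0.21 and -0.24.

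Lin28a rose in HL. It encodes an RNA-binding protein of early embryos that blocks the processing of let-7 microRNAs, and let-7 in turn represses Lin28a. The sequences below show the seed and its matches. The let-7 family members share the seed GAGGUAG (bases 2 to 8, in capitals). Its reverse complement CTACCTC (in capitals) occurs at 2 places in the Lin28a 3′ untranslated region. Whether let-7 acts at these places in the buds was not tested.
mmu-let-7a-5p: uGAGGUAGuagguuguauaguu
mmu-let-7e-5p: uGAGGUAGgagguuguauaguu
mmu-miR-98-5p: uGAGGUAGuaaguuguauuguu
Lin28a match 1, chr4:134005184-134005211, minus strand: gcacagcctgttgaaCTACCTCattttt
Lin28a match 2, chr4:134004546-134004573, minus strand: gagatcgccacaaacCTACCTCactgtg
The microRNAs are from RefSeq (GRCm38.p6) and the matches from GENCODE M21 (GRCm38). CTACCTC occurs in 9.48% of 20677 untranslated regions of at least 50 bases. Mature microRNAs were not measured by these libraries.

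Lin28a was at 5.85, 2.87 and 2.39 TPM in FL and at 28.6, 15.6 and 16.1 TPM in HL. The groups were apart, and replicate 1 was the highest in each. Lin28a rose by 2.18 ± 0.32 (adjusted p = 0.0372). In the mutants it was at 11.1, 6.10 and 11.1 against 36.5, 27.7 and 25.3 TPM (1.59, adjusted p = 0.188), and at E11.5 at 0.572, 0.545 and 0.585 against 2.20, 1.42 and 0.98 TPM (0.66, adjusted p = 0.73). All HL libraries lay above all FL ones in each of these sets.

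Of the 10 genes in the list of LIN28 and early embryonic genes, 8 lay higher in HL, 4 without overlap, and Lin28a alone passed. Among all 11955 genes tested 5937 were higher, and 5.4% were higher without overlap. The list was written with earlier results of these data known. The median was 0.36. Lin28b, its paralogue, was at 14.3, 10.6 and 8.31 TPM in FL and at 22.2, 21.3 and 19.2 TPM in HL (0.88, adjusted p = 0.235). Trim71, a let-7 target and ubiquitin ligase gene, was at 3.29, 2.60 and 3.42 against 5.79, 3.71 and 5.53 TPM (0.54, adjusted p = 0.376). Nr6a1, an orphan nuclear receptor gene of the early trunk, was at 2.26, 1.39 and 1.98 against 7.66, 2.96 and 2.40 TPM (0.78, adjusted p = 0.453). The untranslated regions of 8 of the 10 genes hold CTACCTC, from 1 match in Igf2bp2 and Igf2bp3 to 8 in Nr6a1; several were listed because let-7 is known to target them, so this count is no independent result.

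Retinoic acid genes of the proximal limb lay on both sides of 0. Aldh1a2, which makes retinoic acid in the flank, was at 0, 1.16 and 0.388 TPM in FL and at 8.98, 9.17 and 7.85 TPM in HL. The limbs were apart by 2.74 ± 0.61 (adjusted p = 0.155; 0.0207 without E10.5 Mut FL replicate 3, which held it at 10.3 TPM; 0.0137 to 0.427 over all alternatives). Rarb, a receptor gene induced by retinoic acid, was at 4.88, 6.01 and 5.06 against 14.2, 10.3 and 9.13 TPM (0.94 ± 0.16, adjusted p = 0.064; 0.0492 with coding genes alone, 0.036 to 0.357 over all alternatives). Meis1 and Meis2, markers of the proximal limb, lay higher in all HL libraries, by 0.39 and 0.40 (adjusted p = 0.379 and 0.414). Cyp26b1, which degrades retinoic acid in the distal limb, was at 3.53, 4.86 and 9 against 2.5, 2.36 and 4.69 TPM, with overlap (-0.66). Shox2, which shapes the proximal long bones, was at 17.1, 31.7 and 27.3 against 3.65, 8.92 and 21.3 TPM, also with overlap (-1.34, adjusted p = 0.439). The binding proteins Crabp1 (0.63) and Crabp2 (-0.28) were the highest members of the list, and Crabp2 was close to 0 (-0.01) on the deposited scale. Over the 16 tested members of the list, 8 were higher and 8 lower, with 0 calls and a median of 0.01.

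Markers of trunk mesoderm and the body cavity lining lay on both sides of 0. Wt1, a gene of the coelomic lining, was at 0, 0.479 and 0.391 TPM in FL and at 3.28, 1.62 and 1.70 TPM in HL (1.29, adjusted p = 0.204). Upk3b, of the same lining, was at 0.335, 0.186 and 0.145 against 0.805, 1.62 and 0.653 TPM (0.70), and Gata6 differed by 0.99. These 3 were higher without overlap, as were 5.4% of all genes tested. Meox2, a somite and limb muscle gene, was lower in HL, at 4.97, 12.6 and 13.1 against 2.58, 3.23 and 6.49 TPM, with overlap (-1.11, adjusted p = 0.297). Of the whole list of 17 somite and trunk mesoderm markers, 6 were tested, 5 of them higher in HL, with a median of 0.68 and 0 calls; in the mutants the median was -0.03. Their summed level was 9.97 to 21.9 TPM in FL and 15.3 to 21.8 TPM in HL, so the groups overlapped. The part of flank tissue in the levels of Aldh1a2 and the posterior Hox genes was not tested.

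The signalling lists held 0 calls, with medians near 0. Of 17 tested FGF and apical ridge genes, 0 passed and the median was 0.10. Dusp6, an inhibitor induced by FGF, was at 33.9 to 47.3 TPM in FL and 42.5 to 50 TPM in HL. Among the 18 tested SHH pathway and posterior genes, 0 passed, 14 were lower and the median was -0.20, which was -0.00359 on the deposited scale. Smo, the SHH signal transducer, differed by -0.24 (0.02 on the deposited scale) and Gas1, a co-receptor gene, by 0.17, both with overlap. Hand2, which marks posterior mesenchyme, was at 6.95, 11 and 14.8 against 2.83, 6.25 and 10.7 TPM (-0.74), with overlap. Without overlap, Osr1 was lower, at 3.08, 3.37 and 5.5 against 0.799, 1.11 and 1.48 TPM (-1.21, adjusted p = 0.113). Sall4, a zinc finger gene needed in the early hindlimb, was higher, at 1.5, 1.79 and 3.31 against 8.20, 4.69 and 5.07 TPM (1.14, adjusted p = 0.204). The 15 BMP pathway genes (median -0.14, but 0.09 on the deposited scale) and the 18 Wnt pathway genes (-0.01, but 0.20 on the deposited scale) held 0 calls each. Rspo2, a Wnt enhancer needed in the hindlimb, was higher in each HL library, at 2.55 to 3.51 against 1.69 to 2.06 TPM (0.49, adjusted p = 0.275).

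**Figure D3:**
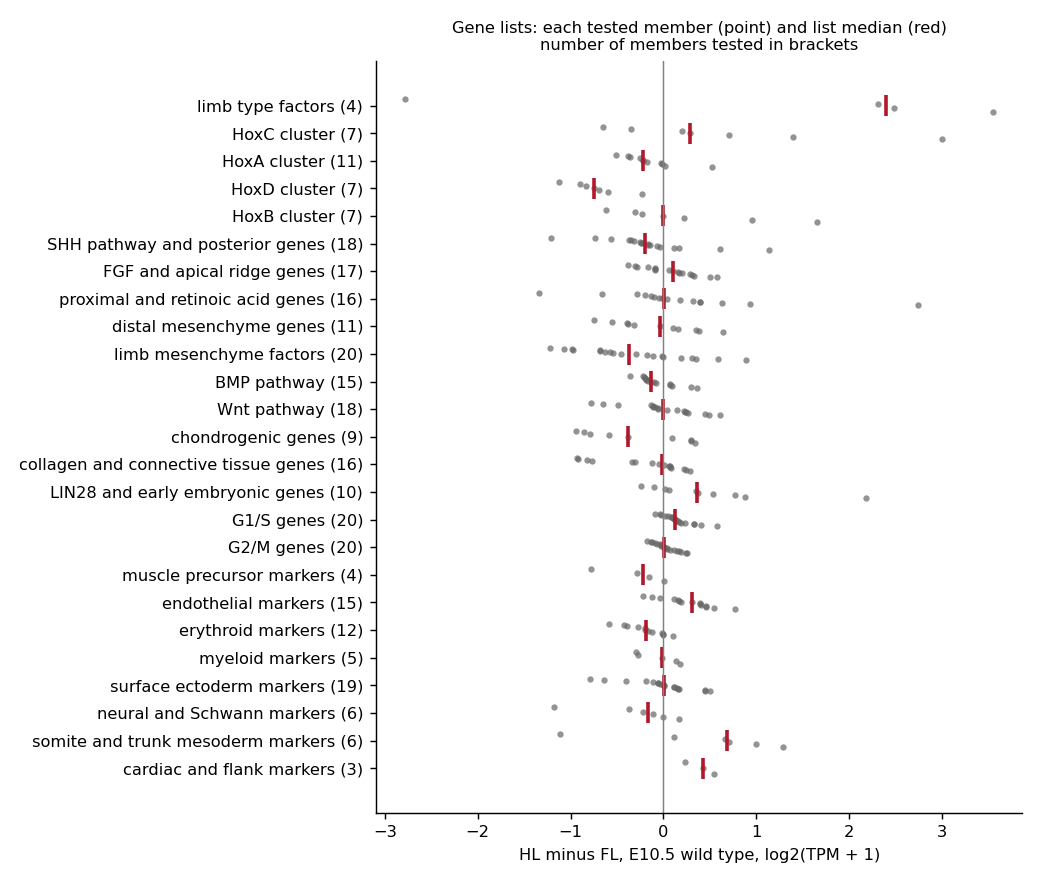
Difference between HL and FL (log2(TPM + 1), rescaled libraries, E10.5 wild type) of each tested member (grey points) of the gene lists, with the median of each list as a red line and the number tested in brackets. Medians run from -0.74 for HoxD to 2.40 for the 4 limb type factors, with most lists within 0.4 of 0; on the deposited scale all points move up by about 0.2 and medians near 0 change sign.

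Most mesenchymal factors lay lower in HL. Of 20 tested limb mesenchyme factors 15 were lower, 6 without overlap, with a median of -0.37 (-0.12 on the deposited scale) and 0 calls. Among all 11955 genes tested 6018 were lower, and 6.31% were lower without overlap. Tbx18 was at 5.45, 7.83 and 7.51 TPM in FL and at 1.49, 2.56 and 3.35 TPM in HL (-1.22, adjusted p = 0.235). Pkdcc, a kinase gene of growing long bones, was at 70.8, 37.8 and 45.5 against 20.9, 23.3 and 25.6 TPM (-1.06, adjusted p = 0.275). Prrx1, whose enhancer drives the Cre, was at 32.7, 58.2 and 60 against 20.1, 35.4 and 46.7 TPM, with overlap (-0.58).

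Of the chondrogenic genes, 9 were tested and 5 were lower, 4 without overlap: Runx2, Sox5, Col9a1 and Col11a1. Among all genes tested 6.31% were lower without overlap. Runx2, the factor of bone formation, was at 0.81, 1.19 and 1.29 against 0, 0.133 and 0.131 TPM (-0.94, adjusted p = 0.128). Col9a1, a cartilage collagen gene, was at 6.26, 7.33 and 8.88 against 2.40, 3.70 and 5.26 TPM (-0.86, adjusted p = 0.275). Sox9, the first cartilage factor, overlapped (-0.38), and Col2a1 (0.30) and Hapln1 (0.34) were not lower. The list's median was -0.38, but 0.23 over the 14 members that passed the filter with coding genes alone. Among connective tissue genes, Vcan, a matrix proteoglycan gene, was at 34.8, 55.6 and 38.7 against 20.1, 25.0 and 20.6 TPM (-0.92, adjusted p = 0.133). Col1a2 (-0.93) and Mfap4 (-0.82) did not overlap either, while Col3a1 did (-0.05), and the median of the list was -0.02 (0.19 on the deposited scale).

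Cell type markers gave 0 calls. Endothelial markers were higher in HL for 12 of 15, with a median of 0.30; their summed level was 46.6 to 60.8 TPM in FL and 66.1 to 82.7 TPM in HL. Emcn was at 7.75, 12.3 and 9.33 against 13.8, 12.9 and 12.2 TPM (0.39, adjusted p = 0.492). Surface ectoderm markers had a median of 0.00371 and summed to 85.0 to 105 TPM in FL and 94.3 to 96.3 TPM in HL. Erythroid markers had a median of -0.18, but 0.07 on the deposited scale. Among muscle precursor markers, Met, a receptor gene of migrating precursors, was at 5.65, 6.63 and 4.29 against 5.43, 3.92 and 3.73 TPM (-0.28), and Pax3 was at 1.78, 2.59 and 1.88 against 3.42, 1.60 and 1.52 TPM (0.00308), both with overlap. The muscle factor genes Myf5 and Myog, tested with coding genes alone, differed by -1.60 (adjusted p = 0.31) and -0.82 (adjusted p = 0.482), and both rose by stage in the mutants, by 2.09 and 1.79. Their part in the share of stage genes lower in HL was not tested. Of the 20 G1/S genes, 17 were higher in HL, with a median of 0.13 and 0 calls, and the 20 G2/M genes had a median of 0.00795.

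To place the limbs in developmental time, genes that change with stage were taken from the 12 mutant libraries of E10.5 and E11.5, which share no library with the WT buds. These buds carry the Cre that removes U11 in mesenchyme. Stage and any response to U11 loss therefore cannot be told apart in this reference. With coding genes alone, 357 of 12952 genes rose by at least 1 log2 from E10.5 to E11.5 (2.76%) and 170 fell (1.31%; both at an adjusted p under 0.05, limma). E10.5 reads were trimmed by 3 nt and E11.5 reads were not, so stage changes of short transcripts carry that difference; the limb comparison lies within a stage. Of the 357 genes that rose, 319 were tested in the WT limbs, and 79.9% were lower in HL, with a median of -0.49. Of the 170 that fell, 72.9% were higher in HL, with a median of 0.29. Over all 12679 genes in both fits, 49.7% were lower and the median was 0.00161. The E10.5 mutant libraries enter the stage fit and share in the spread of the limb fit, but not in the WT difference. Across those 12679 genes the stage change and the limb difference had Pearson's r of -0.32; genes are not independent replicates, and HL and FL values come from 6 libraries.

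When all gene types were kept, the reference also held many small RNAs: of its 412 genes, 192 were protein-coding, 88 snoRNA and 38 snRNA. There, 81.4% of 183 risers were lower in HL (median -0.57) and 59.4% of 202 fallers were higher (0.17). Its largest risers, Gm26870, Gm25890, Gm10800, Gm21738 and Gm10801, overlapped between limbs. FL replicate 3 listed Gm10800 at 2620 TPM, beside 0.841 to 171 TPM in the other WT libraries of E10.5. Its largest fallers, Gm25099, Snord22, Gm26447, Snord13 and Gm19658, are annotated as snRNA, snoRNA or miRNA and overlapped as well. With predicted and histone genes left out of the coding reference, 80.4% of 286 risers were lower and 76.4% of 140 fallers higher. A reference from the contrast of mutant HL libraries gave 80.1% and 80.6%, and one from that of mutant FL libraries 71.3% and 63.4%. Both contrasts come from the fit to all 12 mutant libraries. E10.5 Mut FL replicate 3 is outside the HL contrast but still shares in its rescaling, filter and spread.

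**Figure D4:**
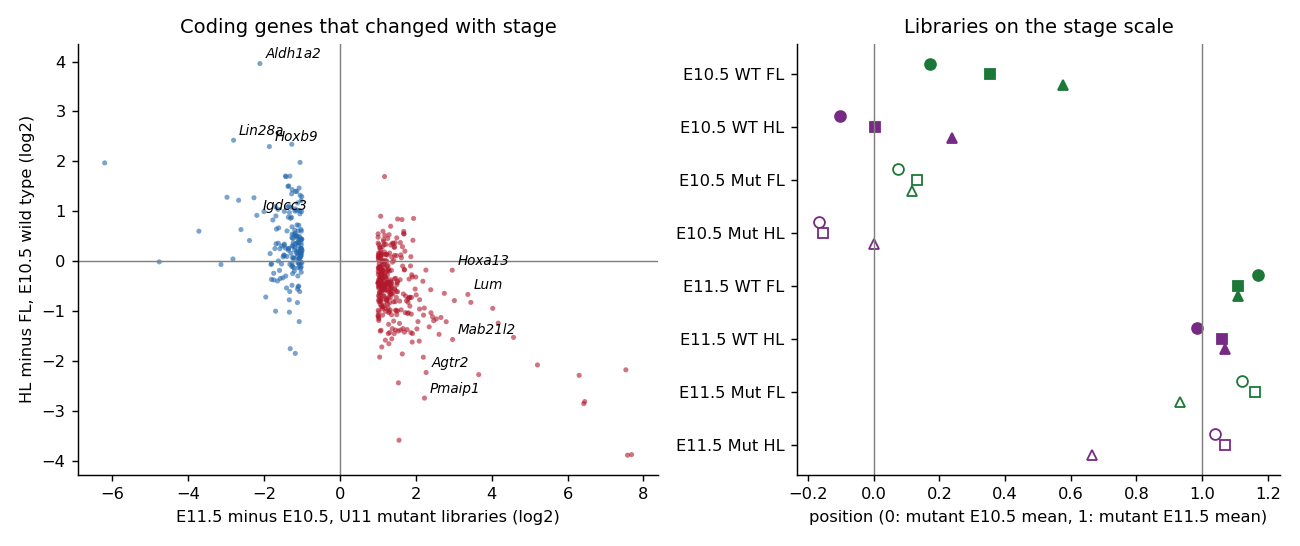
Left: for coding genes that rose (red) or fell (blue) from E10.5 to E11.5 in mutant libraries, that log2 change (x) against the HL minus FL difference in E10.5 wild type (y). Right: position of each library between the mutant E10.5 mean (0) and the mutant E11.5 mean (1), with FL green, HL purple, mutants open and symbol shape the replicate number; HL libraries of E10.5 WT sit at -0.102, 0.00287 and 0.238, FL ones at 0.171, 0.355 and 0.577.

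In the coding reference, 20.1% of the risers tested were higher in HL and 27.1% of the fallers were lower. Rab43, for instance, rose by stage (1.175) and was higher in HL (1.70, both with coding genes). Apoa2 fell by stage (-1.18) and was lower in HL (-1.85). These genes and those that follow were picked after their values were seen. Those that follow and belong to the reference all go the way of its majority. Pmaip1, a cell death gene, rose by stage (2.23 with coding genes) and was at 3.18, 6.27 and 10.2 TPM in FL and at 0.107, 0.908 and 1.78 TPM in HL (-1.95, adjusted p = 0.076). Agtr2, an angiotensin receptor gene, rose by 2.27 and was at 6.96, 3.14 and 2.03 against 0.274, 0.361 and 1.56 TPM (-1.50, adjusted p = 0.187). Mab21l2 rose by 2.97 and was at 5.32 to 13.8 TPM in FL against 0.778, 4.70 and 6.75 TPM, with overlap (-1.30). Among genes that fell by stage, Igdcc3 (-2.19) was at 9.86, 7.01 and 11.2 TPM in FL and at 15.3, 15.1 and 23.1 TPM in HL (0.86, adjusted p = 0.204). Lin28a (-2.81), Aldh1a2 (-2.11), Hoxb9 (-1.86) and Rarb (-1.63) fell by stage and were higher in HL. Cdkn1c, a cell cycle inhibitor gene, rose by 1.72 and was at 52.1, 56.3 and 56.7 against 25.3, 22.7 and 32.9 TPM (-1.02, adjusted p = 0.051; 0.0429 with coding genes alone, 0.0356 to 0.858 over all alternatives). Dlk1, a growth regulator gene, fell by 1.39 and was at 10.4, 9.97 and 13.7 against 23.0, 24.4 and 24.6 TPM (1.02, adjusted p = 0.0541; 0.0331 with coding genes alone, 0.0228 to 0.21 over all alternatives). The coding reference did not hold Tbx5, Tbx4 or Pitx1, whose stage differences were 0.58, -0.05 and 0.16, but it did hold Gria2 (1.56).

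Each library was then placed between the mean of the mutant E10.5 libraries, set to 0, and that of the mutant E11.5 libraries, set to 1. With coding genes the WT FL libraries were at 0.171, 0.355 and 0.577 (mean 0.368 ± 0.203, SD, n = 3) and the HL libraries at -0.102, 0.00287 and 0.238 (0.0465 ± 0.174). The mean of HL was lower, but HL replicate 3 lay above FL replicate 1, so the limbs overlapped. In each limb the library numbered 3 had the highest position. Between libraries of the same number FL lay above HL by 0.273, 0.352 and 0.338, though whether they are pairs is unknown. With all genes the WT FL libraries were at 0.17, 0.184 and 0.217 and the WT HL libraries at 0.00836, -0.0286 and 0.0907, without overlap. The E10.5 mutants, whose libraries also made the reference, had means of 0.00592 in FL and -0.00592 in HL with all genes, with overlap. With coding genes their means were 0.107 and -0.107, without overlap. At E11.5 WT libraries were at 1.13 ± 0.0355 in FL and 1.04 ± 0.0481 in HL with coding genes, and at 1 and 0.99 with all genes. At that stage 62.2% of the 357 coding risers were lower in HL, with a median of -0.14, and 58.5% of 147 fallers were higher; with all genes 50% of risers were lower.

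Of the 11 calls, 10 had the same direction in the E10.5 mutants, with E10.5 Mut FL replicate 3 included, and 9 of the 10 tested did at E11.5. The exceptions were Gm28037 in the mutants and Gria2 at E11.5. Igf1, a growth factor gene, passed at E11.5: it was at 2.45 to 2.71 TPM in FL and 9.33 to 13.2 TPM in HL (1.71, adjusted p = 0.000332). At E10.5 it was at 4.30, 7.86 and 6.55 against 5.09, 7.37 and 7.44 TPM (0.09, adjusted p = 0.94), and the change between stages did not pass (1.65, adjusted p = 0.0877).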

How the data were processed

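Total RNA of dissected limb buds was sequenced by the authors (stranded TruSeq total RNA preparation), with 8 groups of 3 libraries by the labels. Their deposited tables give TPM by symbol and sum to 1000000 in every library, so read depth is unknown. Per the submitters' processing notes, HISAT2 and mm10 were used; no source used here names the quantifier, annotation or counted strand. E10.5 reads, by the labels, were shortened by 3 nt.

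Rescaling set the median log2 TPM equal between libraries, using genes that reached 5 TPM throughout (4168 genes at E10.5, factors 0.799 to 1.21 in the 6 libraries compared). A gene entered a fit when 3 or more of its libraries reached 1 TPM, and log2(TPM + 1) was tested by limma-trend (limma 3.58.1 in R 4.3.3). The fit held the 12 E10.5 libraries, which share one estimate of spread (8 residual degrees of freedom), and calls were made at 0.05 after Benjamini-Hochberg adjustment. E11.5 was fitted alike, the change between stages over all 24 libraries, and the stage reference over the 12 mutant libraries. Values of E10.5 and E11.5 were rescaled within their stage. On simulated data with the same layout, 83% of genes changed by 1 log2 and 96% of those changed by 2 log2 were recovered. There were 7 false calls among 11640 genes, and the simulated noise was independent between genes. Changes were planted only in genes averaging above about 5 TPM, and many at once, which eases the Benjamini-Hochberg threshold. Recovery of lower genes was therefore not tested, and in the real fit Isl1 (2.31) and Hoxc10 (3.00) did not pass. Of 38019 symbols 36287 matched GENCODE M21 (GRCm38), 21084 of them nuclear protein-coding. Promoters (4 of the 11 called genes had an entry) and microRNAs come from RefSeq tables of GRCm38.p6. Figures were drawn with matplotlib 3.10.9.

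Members, lists and alternatives were chosen with earlier results of these data known. Named genes are the limb type factors and HoxC genes, the calls with at least 2 TPM and no overlap, up to 3 genes of each list ranked by adjusted p (or 2 by level), and the 5 largest stage changes each way; others were named after their values were seen. Replicates of a WT limb had Pearson's r of 0.883 to 0.943 and none was identical. Whether equal replicate numbers paired FL and HL was checked by their residuals over 6403 genes: r was 0.172, 0.0146 and 0.288 in WT, so the WT numbers were not taken as pairs, and 0.114, 0.168 and 0.129 in mutants. Alternatives were a pseudocount of 0.1, no filter, the deposited scale, coding genes alone, the 6 libraries alone, all 24 libraries, the replicate block and each library left out. One member of a marker list is not reported here.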

Additional observations from a re-analysis of the deposited data

Results flagged for a closer look

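The limb difference of 2 genes changed between stages in WT. For Gria2 the change was 2.55 ± 0.37 (adjusted p = 0.00817, limma over 24 libraries): FL was above HL in 3 of 3 libraries at E10.5, and HL was above FL in 3 of 3 at E11.5. For Gm28037 it was 6.18 ± 0.778 (adjusted p = 0.00212); this gene overlaps Rpl24 and was listed at 0 in all E10.5 WT HL libraries, so its value depends on the added 1.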

How the results depend on the processing

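The 11 calls of HL against FL in E10.5 WT became 29 without the filter, 20 with coding genes, 138 with all 24 libraries, 24 with coding genes and without E10.5 Mut FL replicate 3, and 1 to 17 over the leave-outs. The 7 calls in E10.5 mutants became 3 with a pseudocount of 0.1, 1 without the filter, 11 with 6 libraries, 27 with 24 libraries and 1 to 7 over the leave-outs. The dependence on genotype, with 0 calls, gave 1 with a pseudocount of 0.1, 2 on the deposited scale and 0 to 1 over the leave-outs. The 16 calls at E11.5 became 44 with 6 libraries and 14 to 21 over the leave-outs. The change between stages, with 2 calls, gave 9 without the filter, 1 with coding genes and 2 to 15 over the leave-outs, 15 without E10.5 WT HL replicate 3. The stage reference of 412 genes became 739 with a pseudocount of 0.1, 7209 with no minimum size and 381 to 468 over the leave-outs. The HL minus FL difference in stage position, -0.167, was -0.241 on the deposited scale, -0.321 with coding genes, -0.272 with coding genes and without E10.5 Mut FL replicate 3, and -0.201 to -0.141 over the leave-outs. The cause of these shifts was not tested. The signs of the 25 single genes followed through the alternatives and of the position difference held in all those run; signs of other genes and of list medians near 0 turned on the deposited scale.

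With the replicate block the counts were 4 in E10.5 WT, 11 in E10.5 mutants, 0 for genotype, 20 at E11.5 and 5 between stages. Of the main E10.5 WT calls, only Gria2, Pitx1 and Lin28a passed with the block. Tbx5 (adjusted p = 0.0938, limma) and Tbx4 (0.0863) were among those lost. Whether WT FL and HL of the same number share embryos is not given by the labels, and the residual check cannot settle it. WT FL libraries 1 and 3 correlated best with their own number and library 2 did not. In mutants each FL library correlated best with its own number. The stage position with coding genes was higher in FL by 0.273, 0.352 and 0.338 for numbers 1 to 3.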
